A study of Mus musculus with 59 samples.

Results

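The cortex libraries labelled heterozygous for Mrpl40 were compared with the cortex libraries labelled wild type for it, pooled over the second gene of the study, Slc25a1. The comparison takes 30 of the 59 libraries of the series: 14 labelled Mrpl40 -/+ and 16 labelled Mrpl40 +/+, chosen by the labelled tissue and genotype alone. All were poly(A) RNA of the cortex of male mice, 1 library per animal; no label used here names the age, the strain or the kind of allele. The 16 wild-type libraries were 9 Mrpl40 +/+, Slc25a1 +/+ and 7 Mrpl40 +/+, Slc25a1 -/+, and the 14 heterozygous libraries were 7 Mrpl40 -/+, Slc25a1 +/+ and 7 Mrpl40 -/+, Slc25a1 -/+. Labelled Slc25a1 genotype therefore entered the model as a covariate. Total counts per library ranged from 21443017 to 31854093 in the wild-type group and from 22100013 to 32120906 in the heterozygous group. Markers of excitatory cortical neurons summed to between 6256 and 7740 CPM (the usual scaling of counts to library size) over all 30 libraries, with 11 of 12 listed markers tested.

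Mrpl40 is a component of the larger subunit of the mitochondrial ribosome, the machine that translates the few proteins encoded by mitochondrial DNA, all of them core subunits of the respiratory chain and ATP synthase. Slc25a1 carries citrate out of mitochondria, where it feeds fatty acid and sterol synthesis. Both genes lie in the mouse region matching the human 22q11.2 microdeletion.

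The targeted gene itself was not detectably lower. Mrpl40 lay between 14.1 and 20.4 CPM, with a median of 17.5, in the 16 wild-type libraries, and between 15.0 and 19.3 CPM, with a median of 17.4, in the 14 heterozygous ones. The groups overlapped over nearly their whole ranges, and no heterozygous library lay below the lowest wild-type one. Mean levels were 17.5 ± 1.48 CPM (SD, n = 16) and 17.2 ± 1.42 CPM (SD, n = 14), a log2 difference of -0.025 ± 0.044 (SE; edgeR quasi-likelihood test, adjusted p = 0.86). The counts cover the whole gene as annotated, so a change confined to a short stretch of it was not tested, and the groups below are called by their labels. Slc25a1 separated the libraries into 12 at 10.6 to 13.0 CPM and 18 at 20.7 to 26.1 CPM, and 6 animals fell on the side opposite to their label, 4 of them labelled Mrpl40 +/+ and 2 Mrpl40 -/+. Leaving these 6 out leaves 12 against 12; calls that end and list medians that turn or move by over 1.5 times without them are given below.

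Of 19932 genes tested, 14 passed a false discovery rate of 0.05 (0.0702%): 9 were higher in the heterozygous libraries (0.0452%) and 5 lower (0.0251%). The 9 higher genes rose by 9.22% to 21.9% and the 5 lower genes fell by 11.0% to 15.5%, and no gene of the 19932 had groups that did not overlap. At an unadjusted p below 0.05 there were 1146 higher genes (5.75%) and 1167 lower ones (5.85%). Of the 9 higher genes, 8 were nuclear copies of mitochondrial genes, and the ninth was Scai. The 5 lower genes were C1qa, Selplg, Apoe, S100a1 and Btbd17. Without the 6 animals against their Slc25a1 label 8 genes passed: 7 of the copies, which rose, and Gm5453, a predicted gene that fell and was not among the 14.

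**Figure D1:**
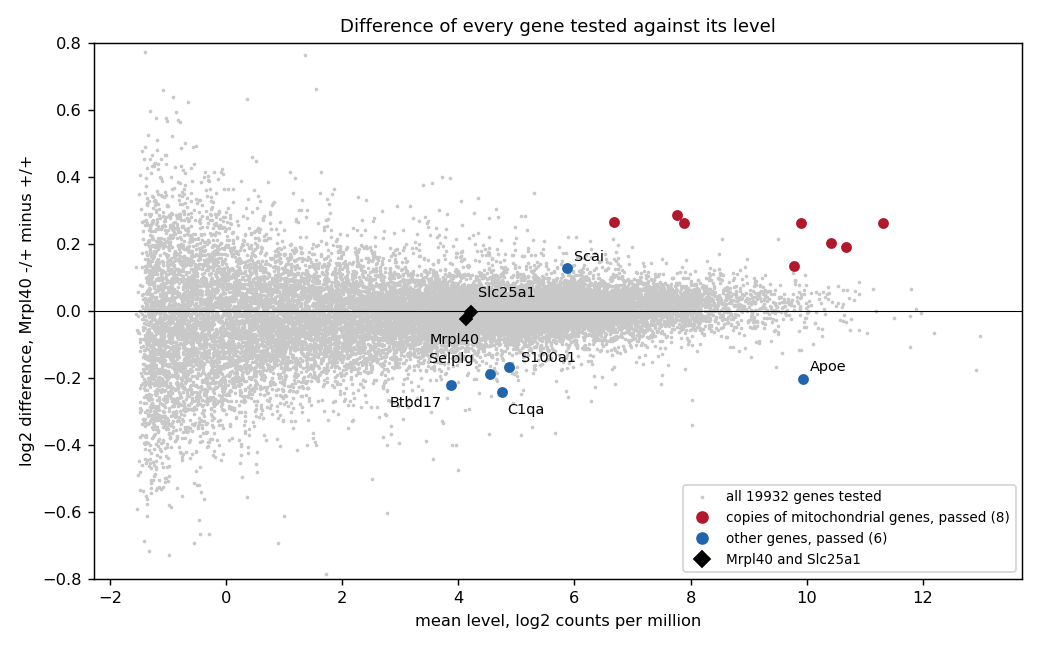
Log2 difference of each of the 19932 genes tested (Mrpl40 -/+ minus +/+, vertical axis) against its mean level in log2 CPM (horizontal axis); red circles are the 8 copies of mitochondrial genes that passed the test, blue circles the other 6 that passed, and black diamonds Mrpl40 and Slc25a1. The red points lie together at high levels between 0.13 and 0.29, Mrpl40 and Slc25a1 lie at -0.025 and -0.0035, and 5 genes fall outside the vertical axis.

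Stretches of mitochondrial DNA were inserted into nuclear chromosomes during evolution and are annotated as pseudogenes. A search of nuclear transcripts against the mitochondrial genes (GENCODE vM21 sequences, GRCm38) found 17 such copies, of which 11 matched at 95% or more over at least 200 bases. How closely they match is what the sequences below show, since it bears on which gene a read can be assigned to. Each copy is followed by the matching stretch of the mitochondrial transcript, 5′ to 3′, with capitals at the bases that differ; positions are counted from the first base of the mitochondrial transcript, with its base first.
Gm10222: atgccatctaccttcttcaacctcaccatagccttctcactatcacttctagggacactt
mt-Nd4l: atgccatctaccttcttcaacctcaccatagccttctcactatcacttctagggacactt
Gm28438: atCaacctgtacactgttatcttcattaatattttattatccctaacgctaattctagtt
mt-Nd3: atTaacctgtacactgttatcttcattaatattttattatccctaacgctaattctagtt
Gm29216: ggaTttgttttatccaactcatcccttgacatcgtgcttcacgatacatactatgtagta
mt-Co1: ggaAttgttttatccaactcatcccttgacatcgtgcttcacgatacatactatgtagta
Gm13340: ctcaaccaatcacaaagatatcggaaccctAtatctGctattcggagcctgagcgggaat
mt-Co1: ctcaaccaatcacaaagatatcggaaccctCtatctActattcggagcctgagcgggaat
Gm10222 matched mt-Nd4l without a mismatch over all 294 bases. Gm28438 had 1 mismatch to mt-Nd3 in 345 bases (T3C), and Gm29216 had 1 to mt-Co1 in 483 (A1066T). Gm13340 matched mt-Co1 at 97.6% with 37 mismatches over 1545 bases, of which C54A and A60G lie in the stretch shown. Another 4 copies, Gm10925 of mt-Atp6, Gm28437 of mt-Co3, Gm28439 of mt-Nd4 and Gm28661 of mt-Co2, had no mismatch over 678, 783, 876 and 681 bases. All 37 mitochondrial gene rows of the deposited table hold 0 counts in every library, so RNA of these copies and RNA of the mitochondrial genes they match cannot be told apart in these counts.

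The 11 close copies were all tested, all 11 were higher in the heterozygous libraries, and 8 of them passed. Over all genes 0.0452% passed in that direction, a share made up of these 8 copies and Scai. The 8 that passed matched 7 mitochondrial genes, and how far their rises are independent of each other was not tested. Together the 11 copies took 0.667% to 0.821% of all counts in the wild-type libraries, with a median of 0.737%. In the heterozygous libraries they took 0.787% to 0.931%, with a median of 0.872%. The heterozygous range thus began inside the upper part of the wild-type range and ended above it.

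Gm10222, the copy of the complex I subunit gene mt-Nd4l, lay at 176 to 228 CPM in the wild-type libraries, with a median of 196, and at 209 to 265 CPM in the heterozygous ones, with a median of 237. All 14 heterozygous libraries were above the wild-type median and 11 were above every wild-type library. Its log2 difference was 0.29 ± 0.033 (SE; edgeR adjusted p = 2.26e-06), a rise of 21.9%. Gm28439, matching the complex I subunit gene mt-Nd4, lay at 798 to 957 CPM (median 868) and at 937 to 1167 CPM (median 1036), and 13 of 14 heterozygous libraries exceeded every wild-type one. It rose by 0.26 ± 0.031 on the log2 scale (edgeR adjusted p = 2.26e-06). Gm28438, matching the complex I subunit gene mt-Nd3, lay at 78.2 to 110 CPM (median 93.0) and at 94.0 to 128 CPM (median 113), with 9 of 14 above every wild-type library (log2 difference 0.26 ± 0.045, edgeR adjusted p = 0.00402).

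Copies of the ATP synthase and cytochrome oxidase subunit genes rose as well. Gm10925, matching mt-Atp6, lay at 2180.0 to 2668 CPM (median 2299) in the wild-type libraries and at 2545 to 3123 CPM (median 2804) in the heterozygous ones, with 9 of 14 above every wild-type library. Its log2 difference was 0.26 ± 0.031 (edgeR adjusted p = 2.26e-06). Gm28661, matching the cytochrome oxidase gene mt-Co2, lay at 1371 to 1664 CPM (median 1516) and at 1565 to 1889 CPM (median 1734), and rose by 0.19 ± 0.029 (edgeR adjusted p = 0.00042). Gm28437, matching mt-Co3, lay at 1086 to 1432 CPM (median 1304) and at 1341 to 1606 CPM (median 1489), and rose by 0.20 ± 0.031 (edgeR adjusted p = 0.00042). For these 2 copies 11 and 9 of the 14 heterozygous libraries, in that order, exceeded all wild-type ones.

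The 2 copies of mt-Co1 that passed differ in how closely they match it. Gm13340, with 37 mismatches, lay at 186 to 252 CPM (median 220) in the wild-type libraries and at 224 to 286 CPM (median 258) in the heterozygous ones, and rose by 0.26 ± 0.041 on the log2 scale (edgeR adjusted p = 0.00124). Gm29216, with 1 mismatch, lay at 758 to 920 CPM (median 839) and at 854 to 974 CPM (median 927), and rose by 0.13 ± 0.026 (edgeR adjusted p = 0.0229). Of the 14 heterozygous libraries, 8 and 9 exceeded every wild-type library for Gm13340 and Gm29216. The difference between these 2 rises was not tested.

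The 3 close copies that did not pass were at far lower counts, with at most 218 counts in any library. Gm13339, matching mt-Nd2, had medians of 5.27 and 6.19 CPM and a log2 difference of 0.22 ± 0.074 (edgeR adjusted p = 0.215). Gm4076, matching mt-Nd5, differed by 0.15 ± 0.086 (edgeR adjusted p = 0.512), and Gm13341, a second match to mt-Co2, by 0.11 ± 0.072 (edgeR adjusted p = 0.568). The 6 more distant copies had at most 4 counts in any cortex library and were not tested. Without the 6 animals against their Slc25a1 label, 7 of the 8 copies still passed, and Gm29216 did not (0.14 ± 0.030, edgeR adjusted p = 0.0687).

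**Figure D2:**
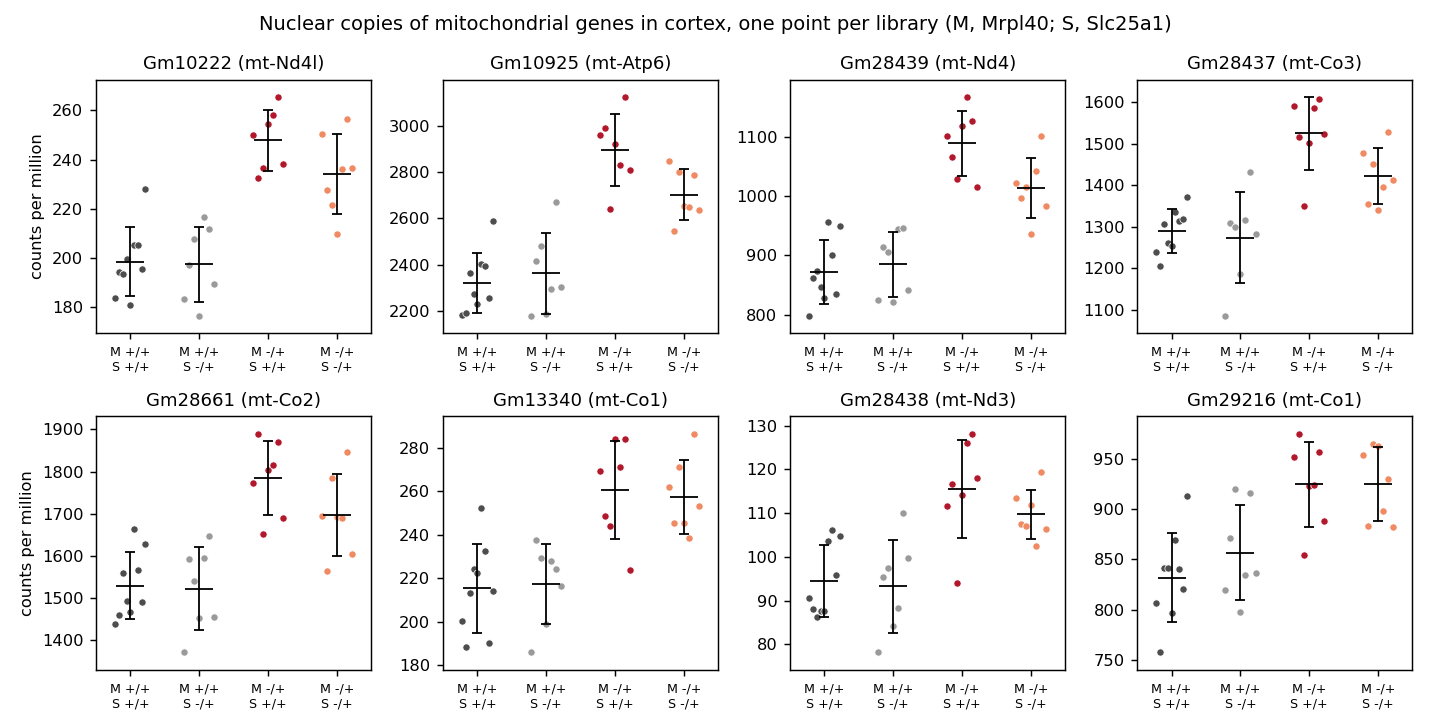
CPM of the 8 copies that passed in each cortex library, by labelled genotype of Mrpl40 (M) and Slc25a1 (S), with the mean and SD of each genotype in black; vertical axes do not start at 0. For each copy both heterozygous Mrpl40 columns have higher means than both wild-type columns, such as 248 and 234 CPM against 198 and 197 CPM for Gm10222.

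Among the lower genes, C1qa and Selplg are known in brain from microglia. C1qa, a chain of the complement starter C1q, lay at 24.8 to 33.0 CPM in the wild-type libraries, with a median of 29.5, and at 19.2 to 30.4 CPM in the heterozygous ones, with a median of 24.3. Of the 14 heterozygous libraries, 13 were below the wild-type median and 9 below every wild-type library. It fell by 15.5% (log2 difference -0.24 ± 0.044, edgeR adjusted p = 0.00583). Selplg, the P-selectin ligand, lay at 20.5 to 28.9 CPM (median 24.8) and at 18.8 to 23.4 CPM (median 22.1), and all 14 heterozygous libraries were below the wild-type median. It fell by 12.2% (log2 difference -0.19 ± 0.038, edgeR adjusted p = 0.0283).

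The other 2 chains of C1q did not pass: C1qb differed by -0.17 ± 0.046 (edgeR adjusted p = 0.117) and C1qc by -0.16. Of the 12 microglia markers, 1 passed (C1qa) and 11 were lower, 9 of them at an unadjusted p below 0.05 (5.85% of all genes were), with a median log2 difference of -0.10 against -0.0037 over all genes tested. The 3 C1q chains are among these 12. Tmem119 and P2ry12, the markers that set microglia apart from blood macrophages, differed by -0.12 and -0.11. The summed level of the 12 markers was 401 to 495 CPM (median 438) in the wild-type libraries and 368 to 442 CPM (median 408) in the heterozygous ones, so the ranges overlapped. In bulk RNA, fewer cells of a type and less RNA per cell cannot be told apart.

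Apoe, the main apolipoprotein of the brain, secreted mostly by astrocytes, lay at 874 to 1233 CPM in the wild-type libraries, with a median of 1031, and at 772 to 1009 CPM in the heterozygous ones, with a median of 898. All 14 heterozygous libraries were below the wild-type median, and 4 were below every wild-type library. It fell by 13.1% (log2 difference -0.20 ± 0.039, edgeR adjusted p = 0.0205). S100a1, a calcium-binding protein, lay at 27.7 to 34.3 CPM (median 30.2) and at 25.2 to 29.9 CPM (median 27.1), with 11 of 14 heterozygous libraries below every wild-type one. It fell by 11.0% (log2 difference -0.17 ± 0.032, edgeR adjusted p = 0.0153). Btbd17 lay at 13.5 to 17.6 CPM (median 15.4) and at 10.9 to 15.4 CPM (median 13.4), with 7 of 14 below every wild-type library (log2 difference -0.22 ± 0.047, edgeR adjusted p = 0.047).

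Beside Apoe, the 12 astrocyte markers were all lower and none passed, with a median log2 difference of -0.057. Aldoc, the brain form of the glycolytic enzyme aldolase, differed by -0.13 ± 0.031 (edgeR adjusted p = 0.082), and Sox9, an astrocyte transcription factor, by -0.17 ± 0.048 (edgeR adjusted p = 0.158). The summed astrocyte markers were 4638 to 5706 CPM (median 5207) in the wild-type libraries and 4619 to 5376 CPM (median 4949) in the heterozygous ones. Their part in the change of Apoe was not tested. Fibroblast and meningeal markers summed to between 121 and 757 CPM in the wild-type and between 105 and 641 CPM in the heterozygous libraries, and hippocampal markers to between 277 and 441 CPM and between 298 and 401 CPM.

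Scai, which encodes a suppressor of cancer cell invasion, was the 1 higher gene that is not a copy. It lay at 50.8 to 60.5 CPM in the wild-type libraries, with a median of 56.2, and at 55.6 to 66.6 CPM in the heterozygous ones, with a median of 60.2. Of the 14 heterozygous libraries, 13 were above the wild-type median and 6 above every wild-type library. It rose by 9.22% (log2 difference 0.13 ± 0.027, edgeR adjusted p = 0.0483). Without the 6 animals against their Slc25a1 label, none of Scai, C1qa, Selplg, Apoe, S100a1 and Btbd17 passed, with edgeR adjusted p from 0.0705 (Scai) to 0.318 (Selplg), though each kept its direction. C1qa then differed by -0.23 ± 0.050 (edgeR adjusted p = 0.0827) and Apoe by -0.20 ± 0.042 (edgeR adjusted p = 0.0823).

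**Figure D3:**
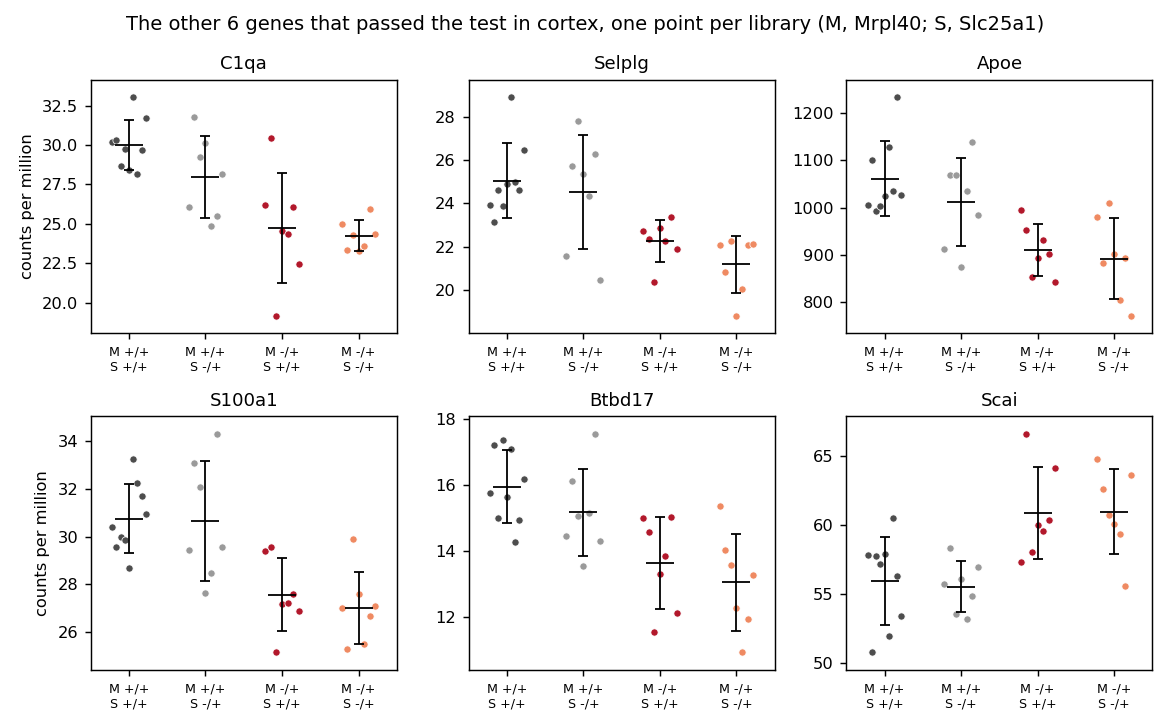
CPM of C1qa, Selplg, Apoe, S100a1, Btbd17 and Scai in each cortex library, by labelled genotype of Mrpl40 (M) and Slc25a1 (S), with the mean and SD of each genotype in black; vertical axes do not start at 0. Pooled over Slc25a1, the Mrpl40 -/+ and +/+ ranges overlap for every gene. Single genotypes do not all overlap: Mrpl40 +/+, Slc25a1 +/+ and Mrpl40 -/+, Slc25a1 -/+ lie apart for C1qa and Selplg. These lie at 28.2 to 33.0 and 23.3 to 25.9 CPM for C1qa, and at 23.1 to 28.9 and 18.8 to 22.3 CPM for Selplg. For C1qa the heterozygous means of 24.7 and 24.3 CPM stand against 30.0 and 28.0 CPM.

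No nuclear gene of the mitochondrial ribosome passed the test. Of 50 large-subunit genes tested, 0 passed, 23 were higher and 27 lower, with a median log2 difference of -0.0084. That median was -0.027 within Slc25a1 +/+ and 0.024 within Slc25a1 -/+, with 37 and 19 of the 50 genes lower. Among the 50, Mrpl51 (-0.087 ± 0.035) and Mrpl4 (-0.052 ± 0.024) had the smallest p, with edgeR adjusted p of 0.325 and 0.4. Of 33 small-subunit genes, 0 passed and the median was -0.0057 (-0.036 within Slc25a1 +/+ and 0.020 within Slc25a1 -/+). Mrps26 differed by -0.094 ± 0.026 (edgeR adjusted p = 0.14). None of 28 translation and assembly factors and none of 22 mitochondrial tRNA synthetases passed. The 27 genes of mitochondrial transcription, RNA turnover and DNA maintenance had 18 higher members and none that passed. Grsf1, which binds mitochondrial RNA, differed by 0.089 ± 0.027 (edgeR adjusted p = 0.175), and Lrpprc, which keeps mitochondrial mRNAs stable, by 0.059 ± 0.026 (edgeR adjusted p = 0.38).

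Nuclear genes of the complexes whose mitochondrial partners were named above did not pass either. The 36 complex I genes had 11 higher and 25 lower members with a median log2 difference of -0.014, with Ndufb7 at -0.091 ± 0.025 (edgeR adjusted p = 0.119). That median was -0.030 within Slc25a1 +/+ and 0.018 within Slc25a1 -/+, with 26 and 15 of the 36 genes lower. Of 12 complex IV genes, 9 were lower and 4 of those were at an unadjusted p below 0.05 (5.85% of all genes were), with a median of -0.050; Cox8a differed by -0.063 ± 0.021 (edgeR adjusted p = 0.208). The 16 complex V genes had a median of 0.0043 and the 13 of complexes II and III one of -0.0040. For complexes II and III it was -0.016 within Slc25a1 +/+ and 0.013 within Slc25a1 -/+.

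Citrate cycle genes were mostly higher by small amounts: 16 of 17 were higher, 5 at an unadjusted p below 0.05 (5.75% of all genes were), and 0 passed, with a median log2 difference of 0.024. Sdha, the succinate dehydrogenase subunit, differed by 0.051 ± 0.021 (edgeR adjusted p = 0.362). Of 23 cholesterol synthesis genes, 18 were higher with a median of 0.045 and 0 passed. That median was 0.068 within Slc25a1 +/+, with 3 of 23 lower, and 0.016 within Slc25a1 -/+, with 10 of 23 lower. Hsd17b7, an enzyme of the late pathway, differed by 0.15 ± 0.033 (edgeR adjusted p = 0.06), and all 14 heterozygous libraries were above the wild-type median of 23.6 CPM. Hmgcs1, which makes the HMG-CoA that the pathway starts from, differed by 0.080 ± 0.030 (edgeR adjusted p = 0.29). Among 34 SLC25 carriers, the family of Slc25a1, 0 passed and the median was 0.021. Of 24 genes of the mitochondrial and integrated stress responses 0 passed and 18 were lower, with a median of -0.060. Nupr1, a stress-induced gene of that list, differed by -0.24 ± 0.082 (edgeR adjusted p = 0.232).

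Outside mitochondria, 72 of 80 cytosolic ribosomal protein genes were lower (10390 of 19932 genes were). Of these, 27 were at an unadjusted p below 0.05 (5.85% of all genes were lower at that p), but 0 passed. The median log2 difference was -0.051. Rps16 differed by -0.13 ± 0.031 (edgeR adjusted p = 0.0673) and Rpl30 by -0.15 ± 0.034 (edgeR adjusted p = 0.068). The 3 metallothioneins were lower and 0 passed, with Mt1 at -0.16 ± 0.057 (edgeR adjusted p = 0.263) and Mt3, the one with the smallest p, at -0.090 ± 0.025 (edgeR adjusted p = 0.132). Of 23 complement and antigen presentation genes, 20 were lower with a median of -0.10, and C1qa was the 1 that passed. C1qa and C1qb are also among the microglia markers. The median was -0.14 within Slc25a1 +/+, with 22 of 23 lower, and -0.053 within Slc25a1 -/+, with 14 lower. Over the alternatives it ranged from -0.12 to -0.021. Synaptic vesicle genes had 15 of 19 higher members and a median of 0.042, with Sv2b at 0.12 ± 0.032 (edgeR adjusted p = 0.117). Among 28 heat shock genes 21 were higher, 7 at an unadjusted p below 0.05 (5.75% of all genes were), with a median of 0.055 and Hspa4 at 0.092 ± 0.031 (edgeR adjusted p = 0.224). That median was 0.0015 within Slc25a1 +/+, with 14 of 28 lower, and 0.095 within Slc25a1 -/+, with 4 of 28 lower. The 12 oligodendrocyte markers were all higher with a median of 0.17 and none was at an unadjusted p below 0.05; the median was 0.30 within Slc25a1 +/+ and 0.020, with 5 of 12 lower, within Slc25a1 -/+, and it ranged from 0.0042 to 0.20 over the alternatives. Of 35 neighbours in the region matching 22q11.2, 0 passed and the median was -0.012.

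Without the 6 animals against their Slc25a1 label, the median of complexes II and III turned to 0.012 and that of complex V moved to 0.015. The median of the large mitochondrial ribosome subunit moved to -0.00025, that of complex I to -0.0053, that of the stress responses to -0.027, that of cholesterol synthesis to 0.029 and that of the heat shock genes to 0.024. Medians of the microglia markers, astrocyte markers and cytosolic ribosomal proteins were then -0.088, -0.059 and -0.044.

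**Figure D4:**
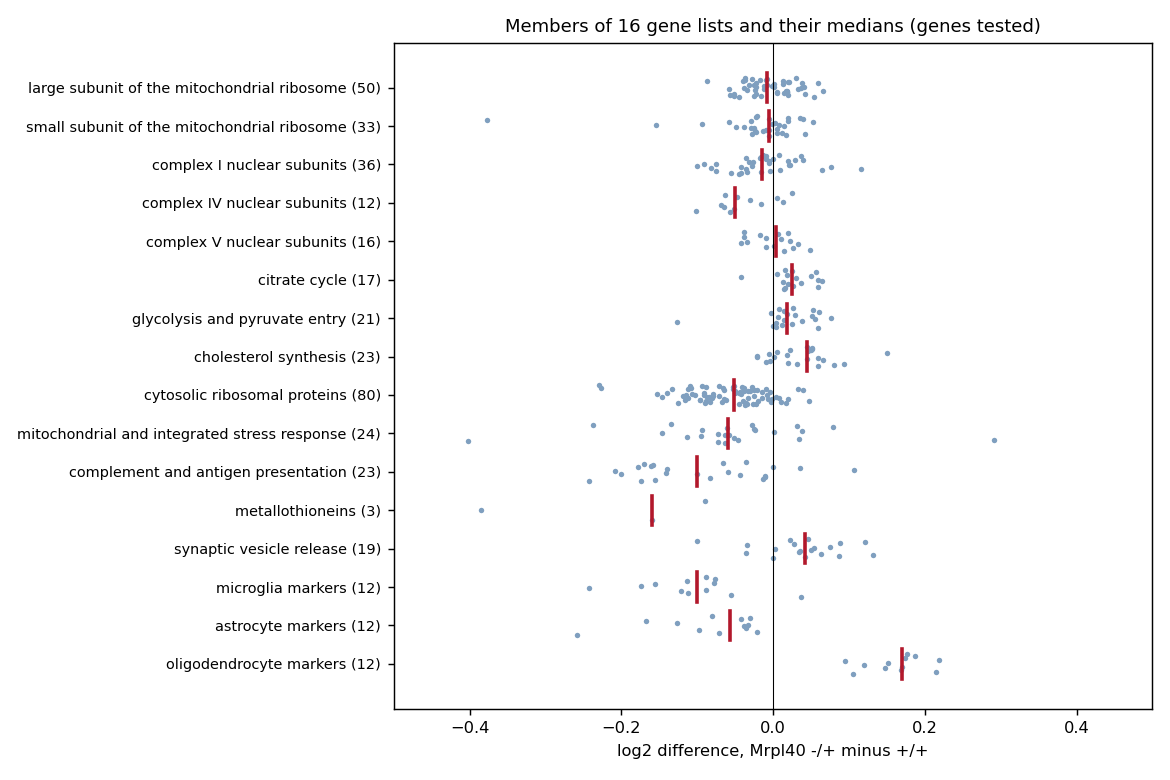
Log2 difference (Mrpl40 -/+ minus +/+, horizontal axis) of the tested members of 16 gene lists, 1 blue point per gene, with the median of each list as a red bar and the number of genes in parentheses. Medians of the mitochondrial ribosome lists lie at -0.0084 and -0.0057, those of the microglia markers and cytosolic ribosomal proteins at -0.10 and -0.051, and that of the oligodendrocyte markers at 0.17 (0.30 within Slc25a1 +/+ and 0.020 within Slc25a1 -/+).

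Small differences also followed the length and base composition of transcripts, which bears on lists of short genes such as the ribosomal proteins. With genes split into 5 classes of about equal size by transcript length, the median log2 difference in the shortest class was -0.034, with 362 genes lower and 68 higher at an unadjusted p below 0.05. In the longest class it was 0.019, with 104 lower and 485 higher. From the lowest to the highest of 5 classes of GC content the median went from 0.019 to -0.026. With these trends taken out library by library, the 8 copies passed with log2 differences of 0.15 (Gm29216) to 0.31 (Gm28438), and Rpl30 was the 1 other gene that passed (-0.15 ± 0.030, edgeR adjusted p = 0.0334). C1qa then missed the threshold (-0.19 ± 0.040, edgeR adjusted p = 0.0598). So did Selplg at -0.17, Btbd17 at -0.20, Apoe at -0.16, S100a1 at -0.13 and Scai at 0.11, with edgeR adjusted p from 0.074 (Selplg) to 0.241 (Scai). The median of the cytosolic ribosomal proteins moved to -0.027, that of complex IV to -0.0091 and that of the microglia markers to -0.085. Several small medians turned sign: the large and small subunits of the mitochondrial ribosome to 0.0078 and 0.0092, complex I to 0.013 with 13 of 36 genes lower, complexes II and III to 0.034 and the neighbours in the 22q11.2-matching region to 0.011. The complex V median moved to 0.032, Mt3 to -0.017 and Cox8a to -0.0094.

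Whether the Mrpl40 difference held in each Slc25a1 background was asked with 2 contrasts that share no library. Within Slc25a1 +/+ (7 against 9), 6 genes passed (0.0294% of 20394): the copies Gm28439, Gm10925, Gm10222, Gm28437 and Gm28661, which rose, and Gm7331, which fell. Within Slc25a1 -/+ (7 against 7), 12 genes passed (0.0588%), and Gm10222 was the 1 gene that passed in both. Gm10222 rose by 0.32 ± 0.046 within Slc25a1 +/+ and by 0.25 ± 0.049 within Slc25a1 -/+ (edgeR adjusted p = 0.000177 and 0.0375). Gm10925 rose by 0.32 ± 0.041 within Slc25a1 +/+ and differed by 0.19 ± 0.044 within Slc25a1 -/+ (edgeR adjusted p = 2.34e-05 and 0.0791). C1qa differed by -0.28 ± 0.060 and -0.20 ± 0.064 (edgeR adjusted p = 0.0752 and 0.219), and Scai by 0.12 ± 0.037 and 0.13 ± 0.040 (edgeR adjusted p = 0.518 and 0.196). Each of the 6 genes that passed within Slc25a1 +/+ had the same sign within Slc25a1 -/+, and 8 of the 12 that passed within Slc25a1 -/+ had the same sign within Slc25a1 +/+. Among those 8, Ppm1e stood at 0.0014 ± 0.039 and Gm43318 at -0.00095 ± 0.084 within Slc25a1 +/+. The share of all genes with the same sign was not counted. Across 20394 genes the differences of both contrasts had a Pearson r of 0.062 and a Spearman rho of 0.12, where genes are not independent replicates.

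Gm10222 apart, none of the 12 genes that passed within Slc25a1 -/+ was among the 14 of the pooled comparison. Malat1, an abundant nuclear noncoding RNA, fell there by 0.25 on the log2 scale (SE 0.046, edgeR adjusted p = 0.0333), from 2215 ± 198 CPM (SD, n = 7) in Mrpl40 +/+ to 1861 ± 104 CPM (SD, n = 7) in Mrpl40 -/+. Within Slc25a1 +/+ Malat1 stood at 2111 ± 135 CPM (SD, n = 9) and 2257 ± 29.7 CPM (SD, n = 7), a log2 difference of 0.097 ± 0.043 (edgeR adjusted p = 0.688). Ppm1e, a protein phosphatase, rose by 0.21 ± 0.042 within Slc25a1 -/+ (edgeR adjusted p = 0.0375), and so did Cpeb2, which binds mRNA, by 0.21 ± 0.043 (edgeR adjusted p = 0.0384). Within Slc25a1 +/+ Ppm1e and Cpeb2 differed by 0.0014 ± 0.039 and 0.045 ± 0.040. Without the 6 animals against their Slc25a1 label, 0 genes passed within Slc25a1 -/+ (1309 at an unadjusted p below 0.05) and 7 within Slc25a1 +/+.

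The test of the difference between these contrasts gave 0 genes at a false discovery rate of 0.05 among 20394 (1092 at an unadjusted p below 0.05). Malat1 came closest, with a difference of -0.35 ± 0.063 (edgeR adjusted p = 0.0562), followed by Rbm45 (0.31 ± 0.064, edgeR adjusted p = 0.224) and Gm38384 (-0.83 ± 0.19, edgeR adjusted p = 0.354). DESeq2 called 1 gene. For the copies the differences ran from -0.12 for Gm10925 to -0.029 for Gm13340, with an edgeR adjusted p of 0.927 for Gm10925. None of them was shown to differ between Slc25a1 labels.

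**Figure D5:**
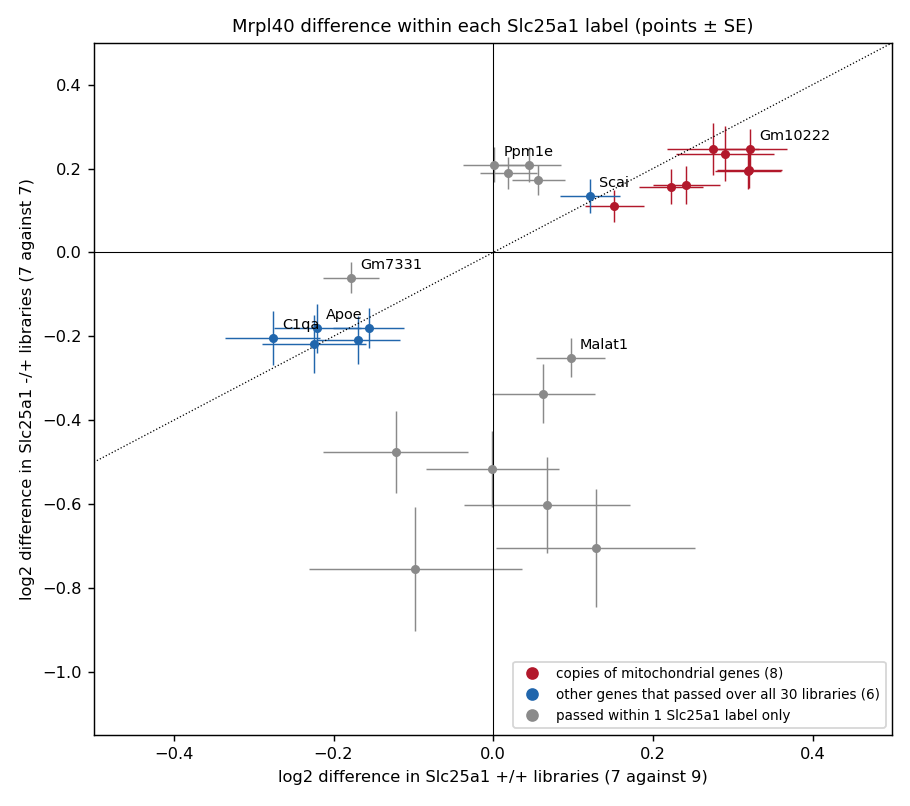
Log2 difference ± SE (Mrpl40 -/+ minus +/+) within Slc25a1 +/+ (horizontal axis) and within Slc25a1 -/+ (vertical axis) for the 26 genes that passed in the pooled comparison or in either contrast; the dotted line marks equal differences. The copies (red) lie on the side of both rises and the other genes of the pooled comparison (blue) keep their sign on both axes, while Malat1 lies at 0.097 and -0.25.

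In the hippocampus of the same animals, 18 of 19699 genes passed the same test (0.0914%). Gm10222 rose there by 0.37 ± 0.046, Gm28439 by 0.35 ± 0.045 and Gm10925 by 0.31 ± 0.052 (edgeR adjusted p = 6.5e-05, 8.8e-05 and 0.00333). The copies Gm28437, Gm13340 and Gm28438 passed there too (edgeR adjusted p = 0.00215, 0.00136 and 0.0041). Gm28661 (0.22 ± 0.051, edgeR adjusted p = 0.0655) and Gm29216 (0.18 ± 0.059, edgeR adjusted p = 0.182) were higher there but did not pass. C1qa differed by -0.14 ± 0.063 (edgeR adjusted p = 0.298), Apoe by -0.14 ± 0.047 (edgeR adjusted p = 0.176) and Scai by 0.0062 ± 0.044 (edgeR adjusted p = 0.966). Over 29 animals with both tissues, with the animal as a block, 13 of 21354 genes differed between tissues in their Mrpl40 difference (0.0609%), each more positive in hippocampus. The 5 with the smallest p were Pcsk1n, a secreted inhibitor of the prohormone convertase PC1 (0.53 ± 0.084, edgeR adjusted p = 0.0176), Ssbp4 (0.26 ± 0.046), Ccdc85b (0.40 ± 0.070), Zfp771 (0.58 ± 0.11) and 1110065P20Rik (0.49 ± 0.094). In cortex Pcsk1n differed by -0.34 ± 0.093 (edgeR adjusted p = 0.144) and in hippocampus by 0.16 ± 0.12. None of the 14 genes of the cortex comparison was among the 13. Without the 6 animals, or without the animal block, 0 genes passed (1462 and 1617 at an unadjusted p below 0.05).

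The design leaves 1 limit on all of these values. In cortex the numbers in the library names run from 1 to 16 for Mrpl40 +/+ and from 18 to 31 for Mrpl40 -/+. In hippocampus they run from 33 to 47 and from 49 to 62. In both tissues, an effect of whatever order they record and the labelled genotype therefore cannot be told apart. Leaving out 1 library at a time gave 11 to 83 genes; 10 of the 14 passed in all 30 such fits, and Selplg passed in 23, Scai in 14, Btbd17 in 13 and Gm29216 in 29.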

How the data were processed

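The authors deposited raw counts, 1 row per gene and 1 column for each library; per the submitters' processing notes FastQC, HISAT2, featureCounts and DESeq2 were used with mm39/GRCm39, versions not given. A second deposited table of normalized counts (signal) equals the first with each library divided by a single factor (largest relative range 9.85e-10). The table has 57180 gene rows, 7074 with a blank symbol.

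Groups came from the labels. The members, gene lists and tests were chosen with earlier results of these data known. R 4.3.3 with edgeR 4.0.16 was used: TMM normalization, its filter on low counts, robust quasi-likelihood test, labelled Slc25a1 as covariate, Benjamini-Hochberg adjustment over all genes tested, threshold 0.05. CPM used TMM-scaled library sizes; log2 CPM used a prior count of 2. A 4-group fit gave the contrasts within each Slc25a1 label and their difference, and a fit of the animals with both tissues, with the animal as a block, the difference between tissues. Nuclear copies of mitochondrial genes were searched with blastn 2.17.0 (90% identity over 100 bases); transcript lengths, GC content and sequences came from GENCODE vM21 (GRCm38), which held 97.4% of tested genes, so no coordinates are given.

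Named were Mrpl40, Slc25a1, the 10 largest rises and 10 largest falls that passed (mean log2 CPM of at least 0, no predicted genes), the 8 next smallest p, and from each list the 2 smallest p, of which some are printed; for the interaction the 3 and for the tissue difference the 5 smallest p. Other genes were picked once their values were known. Alternatives used DESeq2 1.42.0, limma 3.58.1 (log2 of the deposited normalized count plus 1), sva 3.50.0 and others given in the closing section; figures used matplotlib 3.10.9. No 2 libraries of a group agreed within sampling noise (chi-square per gene at least 4.08). The fit was tested on simulated data of the cortex comparison (19781 genes, 50 changed at each size). It recovered 44% of changes of 15%, 80% of 20%, 98% of 50% and 98% of 100%, with 10 false calls. Genes at low levels were not changed, and each gene was drawn on its own, so trends shared by many genes were left out.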

Additional observations from a re-analysis of the deposited data

Results flagged for a closer look

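In 132 checks of a group's highest or lowest library, 10 stood apart from the rest of their group by the 95% critical value of Dixon's test, which chance reaches in about 1 of 20 groups. In Mrpl40 -/+, Slc25a1 +/+, the copy Gm28437 was low in replicate 3 (1351 CPM, next 1501), and Gm13341 was high in replicate 4 (4.53 CPM, next 3.87). Mrpl40 was low in Mrpl40 +/+, Slc25a1 -/+ replicate 2 (14.1 CPM, next 16.9), a library labelled wild type for it. In the same genotype, summed markers of oligodendrocytes (4249 CPM, next 2688) and of their precursors (347 CPM, next 286) were high in replicate 4, and interneuron markers were high in replicate 1 (1557 CPM, next 1412). Among Mrpl40 +/+, Slc25a1 +/+ libraries, fibroblast and meningeal markers were high in replicate 8 (757 CPM, next 406) and blood cell markers low in replicate 2 (83.8 CPM, next 120.0). In Mrpl40 -/+, Slc25a1 +/+, endothelial and pericyte markers were low in replicate 7 (339 CPM, next 385) and thalamic markers high in replicate 5 (172 CPM, next 161).

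For 13 genes the Mrpl40 difference in hippocampus minus that in cortex passed the test of that difference (edgeR, animal as a block). On the log2 scale it was 0.53 for Pcsk1n, 0.26 for Ssbp4, 0.40 for Ccdc85b, 0.58 for Zfp771, 0.49 for 1110065P20Rik and 0.23 for Nop10, a small nucleolar ribonucleoprotein. It was 0.19 for B4galnt1, 0.91 for ENSMUSG00000121914, 0.33 for H2afj, 0.20 for Npdc1, 0.42 for Cck, 1.29 for Scand1 and 0.25 for ENSMUSG00000121607. In cortex none of the 13 passed on its own. The count was 0 without the 6 animals that stand against their Slc25a1 label.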

How the results depend on the processing

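The pooled comparison gave 14 genes, and 7 of these, all copies of mitochondrial genes, passed in all 11 alternatives that set no minimum fold. The count was 13 without a filter on low counts, 15 with DESeq2 size factors, 17 with limma and 20 without the Slc25a1 covariate. It was 13 for the average of the 2 contrasts in the 4-group fit, 10 with 2 surrogate variables (sva) and 13 with the replicate number as a block. Counts moved by more than 1.5 times with the DESeq2 Wald test (157), with the measured Slc25a1 level as covariate (24), without the 6 animals against their Slc25a1 label (8), with a fold of at least 1.2 (0; 81 at an unadjusted p below 0.05) and with the length and GC trends as offset (9). Leaving out 1 library at a time gave 11 to 83 genes; the count was 83 and 45 without Mrpl40 +/+, Slc25a1 -/+ replicates 1 and 4, 34, 28 and 22 without Mrpl40 -/+, Slc25a1 -/+ replicates 1, 3 and 4, 33 without Mrpl40 -/+, Slc25a1 +/+ replicate 1, and 30 and 25 without Mrpl40 +/+, Slc25a1 +/+ replicates 1 and 3. The cause of these moves was not tested.

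The difference between Slc25a1 labels, 0 genes, became 1 without a filter on low counts, 1 with DESeq2 size factors, 1 with the DESeq2 test and 1 without the 6 animals. Within Slc25a1 +/+ the DESeq2 test gave 23 genes in place of 6. Within Slc25a1 -/+, 12 genes became 20 without a filter, 70 with the DESeq2 test and 0 without the 6 animals. The tissue difference of 13 genes became 0 without the 6 animals and 0 without the animal block. The log2 difference of Mrpl40 changed sign with the length and GC offset (0.0066), and that of Slc25a1 with limma (0.018), the measured Slc25a1 level (0.00027), the replicate block (0.049) and the offset (0.041); neither passed in any of them.

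Replicate numbers do not name the same animal in different groups, so the main fit held no replicate block. Across groups, 9 of 30 libraries correlated best with a library of their own number. The median r was 0.126 over 42 same-number pairs, 22 of them above 0.1. Over 294 other pairs it was -0.023, with 100 above 0.1, and whether libraries of 1 number share more was not tested. With the replicate number as a block, 13 genes passed in the pooled comparison, 2 for the difference between Slc25a1 labels, 7 within Slc25a1 +/+ and 12 within Slc25a1 -/+. At this depth and number of libraries, 44% of changes of 15% and 80% of changes of 20% were recovered in simulated data of the cortex comparison. Changes of that size or smaller may have been missed. Those data changed no gene at low levels and held no trend shared by many genes, as the real libraries do.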

Other observations

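No gene of the lists below passed the test. The 33 glutamate and GABA receptor genes had 22 higher members, a median log2 difference of 0.028 (0.0045 without the 6 animals against their Slc25a1 label, 0.0076 with the length and GC offset) and 0 that passed; Gabra5, a GABA-A receptor subunit, differed by 0.28 ± 0.10 (edgeR adjusted p = 0.288) and Gabra3 by 0.084 ± 0.027 (edgeR adjusted p = 0.192). Of 19 circadian clock genes 14 were lower and 0 passed, with a median of -0.065 (-0.037 without the 6 animals). It was 0.0014 within Slc25a1 +/+, with 9 of 19 lower, and -0.12 within Slc25a1 -/+, with 14 of 19 lower. Dbp, a clock output factor, differed by -0.25 ± 0.080 (edgeR adjusted p = 0.208). Of 27 immediate early genes 22 were lower and 0 passed; their median was -0.12 over all 30 libraries (-0.063 without the 6 animals), 0.065 within Slc25a1 +/+ and -0.27 within Slc25a1 -/+, a difference that was not tested. Their summed level ranged from 1576 to 4674 CPM in the wild-type libraries and from 1854 to 4722 CPM in the heterozygous ones.

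Of 21 glycolysis genes 19 were higher, 0 passed and the median was 0.019. The smallest p was that of Aldoc, which was lower (-0.13 ± 0.031, edgeR adjusted p = 0.082). Pgam1, a phosphoglycerate mutase, followed at 0.077 ± 0.025 (edgeR adjusted p = 0.205). Within Slc25a1 +/+ 6 of the 21 were lower, within Slc25a1 -/+ 5, and without the 6 animals 5. Interneuron markers had a median of 0.0032 (-0.021 without the 6 animals), with Gad1, which makes GABA, at 0.11 ± 0.038 (edgeR adjusted p = 0.253). The neuropeptide gene Cck differed by -0.19 ± 0.073 (edgeR adjusted p = 0.309). Of 12 endothelial and pericyte markers all were lower, with a median of -0.063 and 0 that passed. Median log2 differences of the fibroblast and meningeal, choroid plexus, cerebellar and blood cell markers were -0.18, -0.17, -0.12 and -0.11, and within Slc25a1 -/+ the first 2 were 0.079 and 0.20. Without the 6 animals the choroid plexus and cerebellar medians were -0.072 and -0.032. Over the alternatives the choroid plexus median ranged from -0.18 to 0.090. The summed choroid plexus markers had medians of 6.79 CPM in the wild-type and 8.31 CPM in the heterozygous libraries.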
